A study of Mus musculus with 2 samples.

Results

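The genes described are the matrix metalloproteinases (Mmp), the ADAMTS proteases (Adamts), the ADAMTS-like proteins (Adamtsl) and the tissue inhibitors of metalloproteinases (Timp) of the mouse. They were chosen by symbol alone, as every gene of the deposited table of annotated cells named Mmp, Adamts, Adamtsl or Timp plus digits and an optional letter. That gave 46 of 19347 genes, made up of 18 Mmp, 19 Adamts, 5 Adamtsl and 4 Timp genes. A further 5 Mmp genes are listed only in the per-library matrices of 27998 genes (Mmp1a, Mmp1b, Mmp7, Mmp20 and Mmp21).

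The samples came from the dura, the tough outermost of the membranes that cover the brain, of mice at postnatal day 14, and their cells were read by single-cell RNA sequencing in droplets. There was 1 library from IL-33-deficient mice (KO, Il33 mcherry/mcherry) and 1 from heterozygous controls (het, Il33 mcherry/+). Both genotypes carry the H2B-mCherry allele at Il33, so the het mice keep 1 intact copy and neither group is wild type. Each genotype and sex was a pool of 5 to 8 mice, and sorted lymphocytes, sorted gp38+CD31- stromal cells and all viable cells were mixed in parts of 1, 1 and 2, so the shares of cell types are set in part by the sort.

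The annotated cells numbered 6594 in the KO and 5950 in the het library, with a median of 12204.5 and 12746.5 unique molecular identifiers (UMIs, counted RNA molecules) per cell. Over clusters 0, 4, 5 and 7, Il33 itself stood at 20.4 UMIs per 1000000 UMIs (CPM) in KO and 97.0 CPM in het cells, a KO/het ratio of 0.210 (0.195 to 0.226). The libraries shared 14 cell barcodes. With 1 library per genotype there is no replicate error and no test was made. All intervals are 95% intervals that cover counting error only, and genotype, animals, sort and preparation cannot be told apart.

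Matrix metalloproteinases are zinc-dependent enzymes that cut collagens and other proteins of the extracellular matrix, and several of them also cut growth factors and receptors. They are made as inactive precursors and are blocked by the TIMPs, of which Timp3 is bound to the matrix and also inhibits several ADAMTS enzymes. ADAMTS proteases are secreted enzymes that cleave proteoglycans such as aggrecan and versican, trim procollagens or act on fibrillin-rich fibres, and the ADAMTS-like proteins share their accessory domains but have no protease domain. In growing bone, Mmp13 and Mmp9 take part in the removal of cartilage and bone matrix, and the dura at this age lies against the growing skull.

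A level in CPM is a gene's UMI sum in 1 cluster and library, scaled to 1000000 UMIs of the same cells. Levels are not divided by gene length, so they are compared between clusters and libraries and not between genes. The clusters are the authors' and were built from expression, so a level that differs between clusters is a description. Cluster 0 (Slc47a1, Cxcl14, Smoc1) and cluster 7 (Pi16, Aldh1a2, Dpt) were fibroblast-like by 3 and 6 of 7 markers at least 2-fold above all other cells. Cluster 4 (Ibsp, Bglap, Spp1) was osteolineage-like by 8 of 8 markers, cluster 5 (Ptgds, Slc6a13) arachnoid barrier-like by 5 of 7, cluster 8 (Ptprb, Plvap, Flt1) blood endothelial-like by 6 of 6 and cluster 20 (Rgs5, Acta2, Myh11) pericyte or smooth muscle-like by 6 of 6. Cluster 12 held the genes of mast cells and basophils (Cma1, Mcpt4, Mcpt8, 9 of 9) and was also above the other cells in 5 of 7 osteoclast markers, cluster 13 neutrophil granule genes (Ngp, Camp, S100a9, 7 of 8), cluster 3 macrophage genes (C1qc, Pf4, Mrc1, 7 of 7), and clusters 1, 2, 6, 10 and 16 B-lineage genes. In cluster 13 the macrophage markers were also above the other cells (7 of 7), so it is called by its number.

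The 46 genes together held 192492 UMIs in KO and 164743 in het cells, which is 2044 and 1874 CPM. Of these UMIs 77.9% lay in the stromal clusters 0, 4, 5 and 7, which held 42.0% of all UMIs and 33.9% of cells. When each cluster was given equal weight, the share in these clusters was 50.4%. By highest CPM, 21 of the 46 genes peaked in one of these 4 clusters (9 in cluster 4, 8 in cluster 7, 3 in cluster 0 and 1 in cluster 5), 7 in cluster 20 and 6 in cluster 8. No minimum of UMIs was set for a peak, so some rest on few. Adamts13, with 13 UMIs in all, peaked in cluster 20 at 0.659 CPM. Mmp10 peaked in cluster 4, with 10 of its 23 UMIs in 1 cell. Outside the stromal and vascular clusters, 4 genes peaked in cluster 13, 3 in cluster 15 (myelin genes), 3 in cluster 17 (neuronal genes), 1 in cluster 11 and 1 in cluster 16. Such a cluster can hold more than 1 cell kind. Cluster 15 was above the other cells in 5 of 5 oligodendrocyte and 5 of 5 Schwann cell markers. A peak in CPM also need not hold most UMIs: Adamts18 peaked in cluster 17 but had 61.0% of its UMIs in cluster 0.

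**Figure D1:**
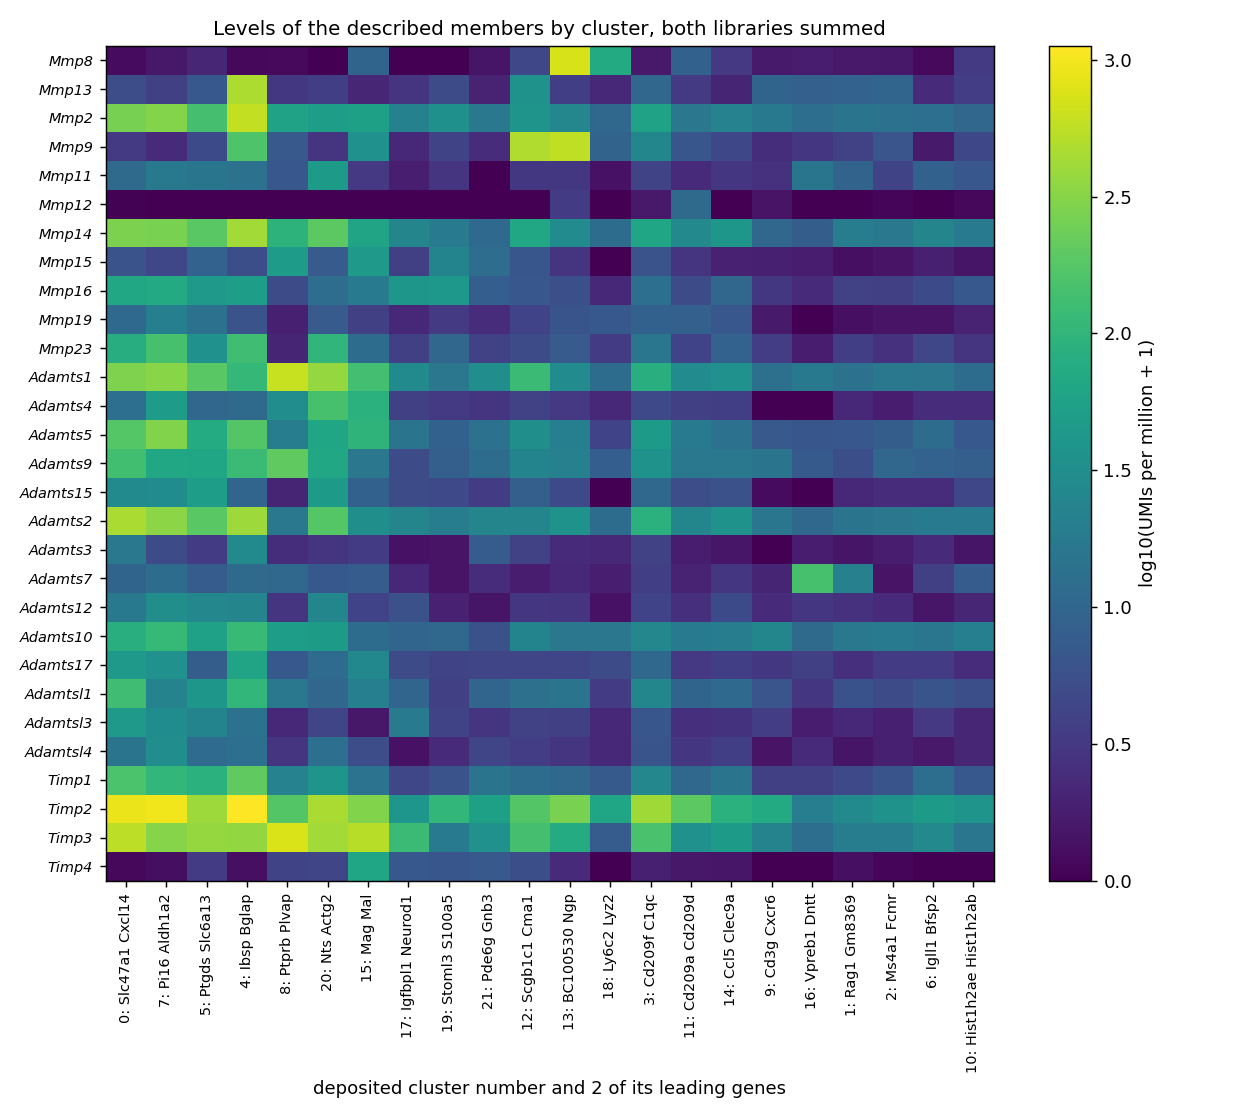
Levels of the 29 genes described in full (rows) in the 22 deposited clusters (columns, with 2 of the leading genes of each), as log10 of CPM + 1 with both libraries summed. Timp2, Timp3, Mmp2, Mmp14, Adamts1 and Adamts2 form a band over the stromal and vascular clusters, while Mmp8, Mmp9, Mmp12, Adamts7 and Timp4 stand out in clusters outside it.

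Most genes were spread over many cells. Of the 27 genes with at least 1000 UMIs, 25 had between 0.127% and 1.92% of their UMIs in the top cell. The exceptions were Mmp13, with 6.67% of 6700 UMIs in 1 cell and 34.0% in 10 cells, and Mmp9, with 5.16% of 10530 UMIs in 1 cell and 36.8% in 10 cells. Both top cells were KO cells of cluster 4. Among the other 19 genes, which had 13 to 787 UMIs, the top cell held at least 5% in 8 (Mmp3, Mmp10, Mmp12, Mmp27, Adamts13, Adamts16, Adamts19 and Timp4).

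Each gene was compared between the libraries in each cluster where it had at least 100 UMIs over both, and a pair of gene and cluster was counted when the CPM differed at least 1.5-fold. Of 222 such pairs, 33 were higher in KO (14.9%) and 17 lower in KO (7.66%), against 2.19% higher and 2.73% lower among the 136111 pairs of all genes. The share was above the background mostly outside the clusters where these genes are at home. In clusters 0, 4, 5, 7, 8 and 20, which make most of this RNA, 7 of 116 pairs were higher in KO and 4 lower, against 1.27% and 1.54% of all genes. In the other 16 clusters 26 of 106 pairs were higher and 13 lower, against 2.67% and 3.36%. Of the 99 pairs in clusters 0, 4, 5 and 7, 82 had a KO/het ratio between 0.8 and 1.25.

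**Figure D2:**
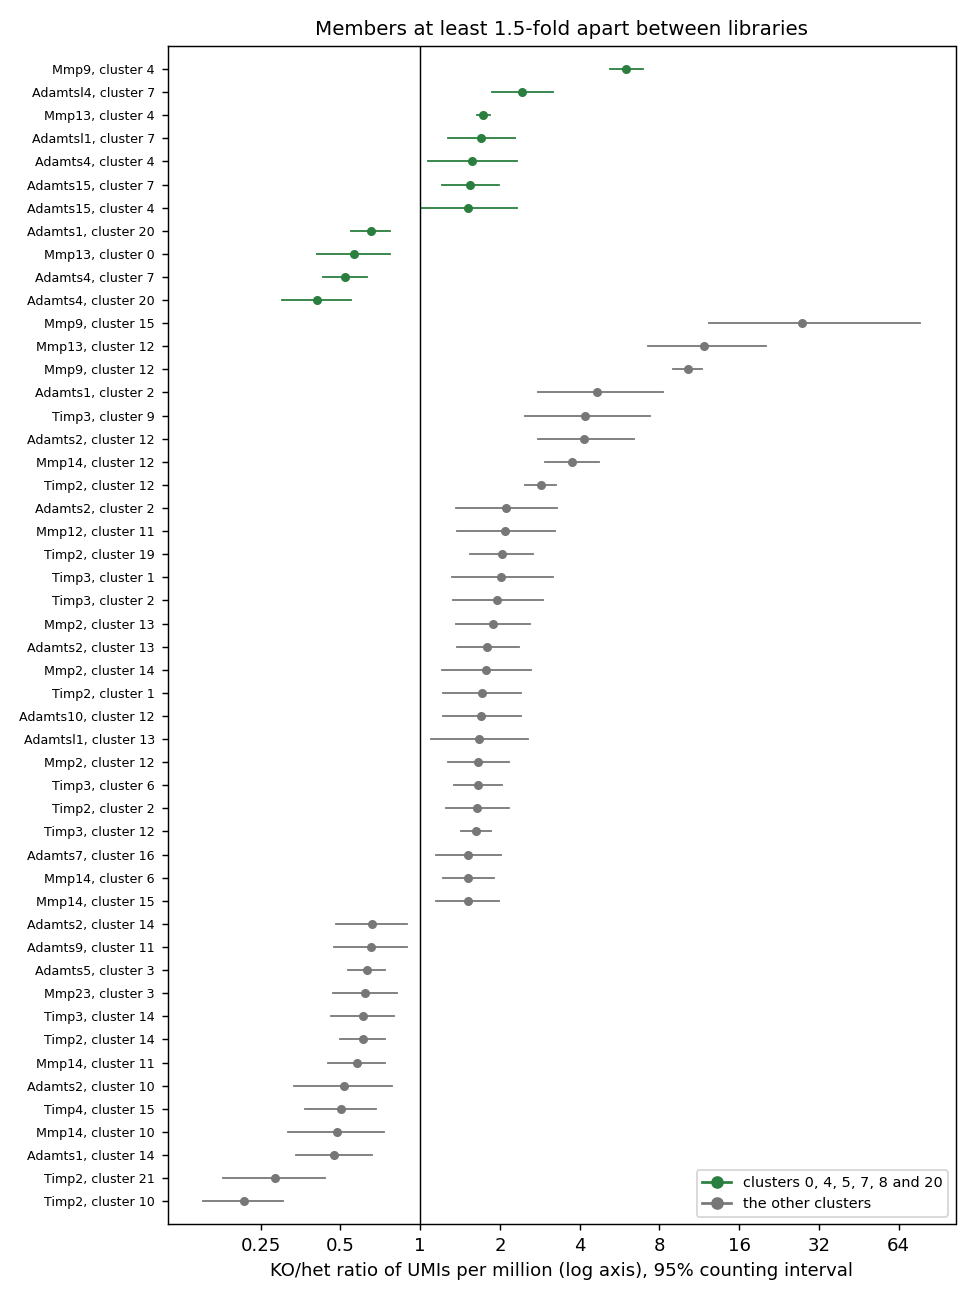
KO/het ratio of CPM (log axis) for the 50 pairs of gene and cluster that differed at least 1.5-fold, with 95% counting intervals, green for clusters 0, 4, 5, 7, 8 and 20 and grey for the others. Grey pairs make up 39 of the 50, and the widest ratios belong to Mmp9 and Mmp13 in clusters 15, 12 and 4.

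The collagenases Mmp8 and Mmp13 cut fibrillar collagen and lie in one cluster of Mmp genes on mouse chromosome 9 (GRCm38, 7272514 to 7699585), together with 8 others. This cluster held 6 of the 46 genes, which were found in quite different cells. Mmp13 was at 471 CPM in the osteolineage-like cluster 4, Mmp8 at 725 CPM in cluster 13, and Mmp12, the macrophage elastase, at 10.4 CPM in cluster 11, which has macrophage and dendritic cell genes such as Cd209a and Ccl17. Mmp3, Mmp10 and Mmp27 held 205, 23 and 26 UMIs in all. The RefSeq promoter windows of 3 of these genes are shown because they neighbour each other but peak in different cell kinds. Each runs from 250 bases before to 50 after an annotated start on the + strand. Capitals mark an AP-1 site (TGAGTCA or its reverse TGACTCA), a RUNX site (TGTGGTT or its reverse AACCACA) and a TATA box (TATAAA or its reverse TTTATA), and no 2 of these letter runs overlap.
Mmp13 (chr9:7272264-7272563): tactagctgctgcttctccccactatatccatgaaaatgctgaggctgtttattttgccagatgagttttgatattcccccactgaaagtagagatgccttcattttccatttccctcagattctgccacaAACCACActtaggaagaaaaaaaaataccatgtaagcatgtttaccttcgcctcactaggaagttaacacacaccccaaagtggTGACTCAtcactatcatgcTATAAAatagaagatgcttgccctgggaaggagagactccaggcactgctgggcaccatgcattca
Mmp8 (chr9:7558179-7558478): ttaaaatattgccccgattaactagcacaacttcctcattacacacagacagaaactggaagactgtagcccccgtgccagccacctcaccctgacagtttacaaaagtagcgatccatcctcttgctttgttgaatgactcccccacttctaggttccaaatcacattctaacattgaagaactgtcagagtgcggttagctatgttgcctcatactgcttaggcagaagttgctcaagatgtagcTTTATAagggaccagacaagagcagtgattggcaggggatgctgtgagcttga
Mmp12, first annotated start (chr9:7344147-7344446): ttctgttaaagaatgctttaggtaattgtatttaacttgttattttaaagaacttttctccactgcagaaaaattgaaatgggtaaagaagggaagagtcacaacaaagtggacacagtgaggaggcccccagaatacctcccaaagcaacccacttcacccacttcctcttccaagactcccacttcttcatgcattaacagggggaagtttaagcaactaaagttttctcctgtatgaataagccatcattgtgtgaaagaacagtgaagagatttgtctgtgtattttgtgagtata
Mmp12, second annotated start (chr9:7347124-7347423): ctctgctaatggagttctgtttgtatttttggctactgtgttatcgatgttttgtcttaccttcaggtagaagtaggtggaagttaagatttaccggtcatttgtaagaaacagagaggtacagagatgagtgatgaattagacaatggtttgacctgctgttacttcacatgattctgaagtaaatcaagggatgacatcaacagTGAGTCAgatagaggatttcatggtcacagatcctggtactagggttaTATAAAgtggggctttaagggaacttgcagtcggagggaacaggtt
The Mmp13 window held all 3 motifs and the Mmp8 window a TATA box on the reverse strand. The first Mmp12 window held none of the 3, and the second an AP-1 site and a TATA box. All 10 genes of the chromosome 9 cluster matched the promoter table, with 12 windows, and 7 of the 12 held the AP-1 letters, 9 the TATA letters and 3 the RUNX letters. Over the 32851 windows of all genes the shares were 5.20% for AP-1, 13.6% for TATA and 5.27% for RUNX. None of the 27 windows of the members outside this cluster held the AP-1 letters. A match is a string of letters only, and binding was not measured.

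Mmp8 stood at 803 CPM (775 to 831) in KO and 635 CPM (609 to 662) in het cells of cluster 13, a ratio of 1.26 (1.2 to 1.34), and this cluster held 93.1% of all its UMIs. Its next level was in the monocyte cluster 18, at 81.1 CPM in KO and 62.5 CPM in het cells. Neutrophils store Mmp8 in their granules, and the granule genes beside it were at ratios of 1.05 (S100a8), 0.946 (Ngp) and 0.833 (Camp) in the same cells. Mmp25, a membrane-anchored enzyme of neutrophils, was by cluster also highest in cluster 13, with 50 UMIs in KO and 19 in het cells, too few for the comparison. With both libraries summed it was at 9.12 CPM there. It was at 16.9 CPM (11.2 to 24.4) in the cells of cluster 9 that the authors named gdTcells, from 18 UMIs in KO and 10 in het.

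Mmp13 was the member most concentrated in the osteolineage-like cluster 4, at 574 CPM (557 to 592) in KO and 332 CPM (316 to 348) in het cells, a ratio of 1.73 (1.64 to 1.83). In cluster 4, 4 of 25 pairs were higher in KO and none lower, against 0.97% and 1.01% of all genes there. The higher level did not come with more cells. Of KO cells 17.8% had an Mmp13 UMI and 9.07% (6.72 to 11.9) had 10 or more, against 20.8% and 11.1% (8.06 to 14.8) of het cells. The UMIs sat in few cells in both libraries, since the top 10 cells held 54.0% in KO and 53.1% in het, with up to 447 UMIs in a KO cell and 223 in a het cell.

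The cluster 4 cells with at least 10 Mmp13 UMIs were also set apart by Spp1, which encodes osteopontin, a protein of mineralising matrix. Leaving out 3 KO cells described below, Spp1 stood at 23788 CPM in the 43 KO cells of this kind and at 275 CPM in the KO cells with fewer Mmp13 UMIs. In the 40 het cells it stood at 15952 CPM, and at 637 CPM in the other het cells. A few cells weighed heavily here too: 1 cell held 27.8% of these Spp1 UMIs in KO and 34.1% in het, the medians were 4 and 1 Spp1 UMIs, and 33 of 43 KO and 27 of 40 het cells had any. Mmp14, which activates other Mmps at the cell surface, was compared with the 3 KO cells kept in. It was at 790 CPM in the 46 KO cells with at least 10 Mmp13 UMIs and 377 CPM in the other KO cells. In het it was at 785 and 368 CPM. The 3 KO cells held 67, 39 and 51 Mmp14 UMIs, which raise the KO value. With these 3 cells also kept in, Alpl was at 947 CPM in the 46 KO cells and 317 CPM in the other KO cells. In het, Alpl was at 1209 and 414 CPM. Sp7 was also higher in the cells with at least 10 Mmp13 UMIs in both libraries. Ibsp was lower in such cells in both libraries, and Bglap was higher in KO and lower in het. These osteoblast-lineage genes did not move with Mmp13 between the libraries: in cluster 4 Bglap was at 0.748, Ibsp at 0.551, Alpl at 0.764 and Sp7 at 0.923 times its het level in KO. Their part in the Mmp13 ratio was not tested.

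Outside cluster 4, Mmp13 differed in cluster 12 and cluster 0. In cluster 12 it was at 62.9 CPM in KO and 5.35 CPM in het cells (11.8, 7.27 to 20.2), from 227 and 18 UMIs. All 18 het UMIs lay in 1 cell, against 18 KO cells with a UMI. Without the cells high in both Mmp9 and Mmp13 that are described below, which were picked by these genes, the ratio was 4.73. Without the top cell of KO and of het no UMI was left in het, and the counting interval of the ratio began at 39.0. With het set at 3 counts the ratio was 48.5. In the same way it was 52.6 without the cells of the top Scrublet (doublet) scores. Both values rest on the chosen 3 counts and are not lower limits. In cluster 0 it was at 3.07 CPM in KO and 5.47 CPM in het cells (0.561, 0.407 to 0.770), but 1 het cell held 47.4% of the UMIs, and leaving out the top cell in KO and in het gave a ratio of 2.25. This was the only pair in cluster 0 that passed 1.5-fold (0 of 29 higher, 1 lower, against 0.65% and 1.44% of all genes).

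The gelatinases Mmp2 and Mmp9 cut denatured collagen and basement membrane collagen, and their patterns had little in common. Mmp2 was a stromal gene, at 598 CPM in KO and 586 CPM in het cells of cluster 4 (1.02, 0.974 to 1.07), at 280 and 255 CPM in cluster 0 (1.10, 1.06 to 1.14) and at 336 and 270 CPM in cluster 7 (1.24). Mmp2 and its cell surface activator Mmp14 were both highest in cluster 4, where Mmp14 was at 421 CPM in KO and 415 CPM in het cells (1.01, 0.960 to 1.07). Both were detected in most of these cells, Mmp2 in 86.2% of KO and 90.8% of het cells and Mmp14 in 84.8% and 89.7%.

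Among the 222 pairs Mmp9 had the widest ratio, and its differences lay outside cluster 13, which held most of its RNA in het. In cluster 13, where it is a neutrophil granule enzyme, it was at 615 CPM (591 to 640) in KO and 521 CPM (498 to 546) in het cells, a ratio of 1.18 (1.11 to 1.25), in 96.1% and 88.6% of the cells. In cluster 12 it was at 857 CPM (827 to 888) in KO and 83.9 CPM (74.3 to 94.2) in het cells, a ratio of 10.2 (9.04 to 11.6), but in only 11.2% of KO and 2.41% of het cells. In cluster 4 it was at 247 CPM (235 to 258) in KO and 41.1 CPM (35.8 to 47.0) in het cells, a ratio of 6.0 (5.2 to 6.95), although 23.9% of KO and 20.8% of het cells had a UMI.

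Few cells carried both differences. They were of 2 kinds, found by rules set after the values had been seen. The first kind held at least 3 of 7 osteoclast markers (Acp5, Ctsk, Ocstamp, Dcstamp, Atp6v0d2, Calcr and Oscar, genes of the bone-resorbing cells of the monocyte lineage), numbered 50 cells in KO and 28 in het, and held up to 518 Mmp9 UMIs in a KO cell and 171 in a het cell. Cluster 12 held 14 of them among 214 KO cells (6.54%, 3.62 to 10.7) and 3 among 166 het cells (1.81%, 0.374 to 5.19). Cells of the first kind were deep, with medians of 36035 UMIs in KO and 35325 UMIs in het, and deeper cells pass such a rule more easily. Clusters 0, 3, 5 and 11 held 7, 4, 7 and 7 of them in KO and 4, 6, 2 and 7 in het. Ctsk had a UMI in 87.0% of KO and 90.6% of het cells of cluster 4, so passing the rule does not by itself make a cell an osteoclast.

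The second kind had at least 20 Mmp9 and 10 Mmp13 UMIs and numbered 6 KO cells and 1 het cell. The 6 KO cells had 218 to 543 Mmp9 UMIs each, 3 of them in cluster 4 and 3 in cluster 12, against 27 Mmp9 UMIs in the het cell, which lay in cluster 0. The KO cells also had 25 to 168 Mmp13, 18 to 67 Mmp14 and 66 to 157 Timp2 UMIs. All 6 had no Acp5 UMI and no Bglap or Ibsp UMI, and at most 1 UMI of Ptprc, the pan-leukocyte gene. They carried at most 1 of the 7 osteoclast markers. Of the 7 chondrocyte markers, Lect1 had a UMI in all 6 (1 to 26 UMIs, 467 CPM), Col9a1 in 5 (564 CPM), Sox9 in 4 (163 CPM), Col2a1 in 3 (445 CPM), Acan in 3 (228 CPM) and Matn1 and Matn3 in 1 each. In the KO cells of neither kind outside cluster 13, Lect1 stood at 2.6 CPM, Col9a1 at 9.46 CPM, Sox9 at 34.6 CPM, Col2a1 at 9.86 CPM and Acan at 31.9 CPM. No cell type name is given to these 6 cells. By sex label 4 were male and 2 female.

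Together the 2 kinds held 2037 and 1040 of the 3091 Mmp9 UMIs of cluster 12 in KO, leaving 14, and 263 of 282 in het, leaving 19. Without them the KO/het ratio in cluster 12 was 0.824. In cluster 4 the second kind held 1303 of the 1731 KO UMIs, and without both kinds the ratio was 1.48. The second kind was picked by its Mmp9 and Mmp13 UMIs, so a fall in their ratios without it is partly built in. Cluster 15 showed the same dependence on single cells: 115 Mmp9 UMIs in KO and 6 in het gave a ratio of 27.6 (12.3 to 76.9), with 72.7% of them in 1 cell. The 8 neutrophil markers summed to 2147 CPM in KO and 23.2 CPM in het cells of cluster 15 (1 and 3 at 0), and the 7 osteoclast markers to 179 and 59.2 CPM (2 and 5 at 0). Without the cells holding osteoclast markers the Mmp9 ratio there was 6.73, and the part of neutrophil RNA was not tested. Over all annotated cells Mmp9 was at 83.1 CPM in KO and 30.7 CPM in het. Neutrophil-rich cluster 13 gave 67.8% of the het UMIs and, leaving out the cells holding osteoclast markers, 30.9% of the KO UMIs.

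**Figure D3:**
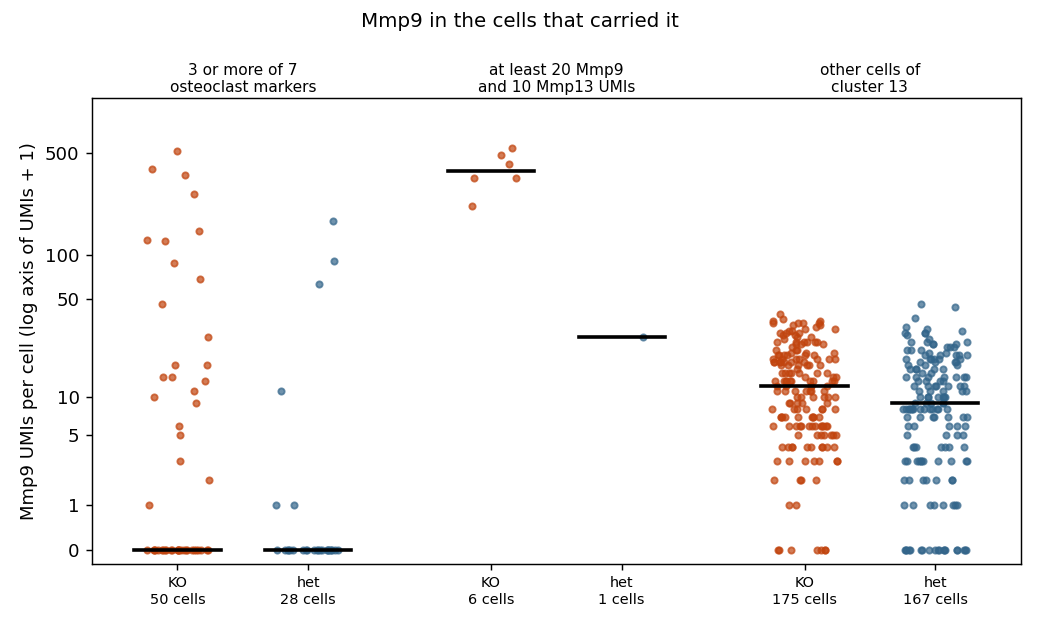
Mmp9 UMIs per cell (log axis of UMIs + 1) in 3 kinds of cell, KO left of het, with the median as a black bar. The 6 KO cells of the middle kind hold 218 to 543 UMIs each, above the highest cell of cluster 13 in either library (39 in KO and 46 in het), and 24 of the 50 KO and 6 of the 28 het cells with osteoclast markers hold any.

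The stromelysins and matrilysin were sparse. Mmp11, a stromelysin that is activated before it is secreted, was highest in the pericyte or smooth muscle-like cluster 20, at 48.6 CPM in KO and 40.9 CPM in het cells (1.19, 0.718 to 1.98), from 37 and 31 UMIs. Mmp12 was at 13.9 CPM in KO and 6.63 CPM in het cells of cluster 11 (2.09, 1.38 to 3.23), from 78 and 34 UMIs in 16 of 240 KO and 14 of 196 het cells. The most in 1 cell was 24 UMIs in KO and 7 in het, and 1.81 was the ratio without the top cell of each library.

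Among membrane-anchored enzymes, Mmp15 peaked in the endothelial-like cluster 8, at 49.7 CPM in KO and 45.5 CPM in het cells (1.09, 0.832 to 1.43). It was also present in cluster 15, at 45.7 CPM in KO and 40.3 CPM in het cells. In the cells of cluster 15 without a UMI of the myelin gene Mog it was higher than in cluster 8, at 60.0 and 65.1 CPM. Cluster 8 held 21.4% of all Mmp15 UMIs, and clusters 0, 4, 5 and 7 together held 38.2%. Mmp16 was stromal, at 72.2 CPM in KO and 73.5 CPM in het cells of cluster 7 (0.982, 0.847 to 1.14). Mmp24, known from neurons, was at 69.4 CPM in KO and 76.9 CPM in het cells of cluster 17 (Neurod1, Stmn2, Elavl2) and was otherwise under 10 CPM in both libraries. Mmp17, at 8.88 CPM in KO and 7.58 CPM in het cells of cluster 15, had 13 and 16 UMIs there.

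Mmp23 and Mmp19 complete the Mmp genes with more than 1000 UMIs. Mmp23 was at 150 CPM in KO and 140 CPM in het cells of cluster 7 (1.08, 0.971 to 1.2), and Mmp19 at 19.1 CPM in KO and 20.2 CPM in het cells (0.947, 0.710 to 1.26). Mmp23 was lower in KO in cluster 3, at 11.4 CPM against 18.3 CPM in het (0.621, 0.468 to 0.820).

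The proteoglycan-cleaving ADAMTS enzymes differed in where they were found. Adamts1 and Adamts9 peaked in the endothelial-like cluster 8, Adamts5 in cluster 7, Adamts15 in cluster 5 and Adamts4 in cluster 20. In cluster 8, Adamts1 was at 559 CPM (528 to 592) in KO and 684 CPM (652 to 716) in het cells (0.818, 0.760 to 0.881), and Adamts9 at 169 CPM in KO and 229 CPM in het cells (0.739, 0.646 to 0.843). Neither passed 1.5-fold, and of the 10 members tested in cluster 8 none did, against 1.21% of all genes higher and 1.94% lower there. Adamts5, an aggrecan- and versican-cleaving enzyme, was at 302 CPM in KO and 290 CPM in het cells of cluster 7 (1.04, 0.967 to 1.12). Adamts15 was at 49.2 CPM in KO and 51.8 CPM in het cells of cluster 5 (0.949, 0.812 to 1.11), where none of 22 members passed 1.5-fold (0.711% of all genes higher, 1.79% lower).

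Adamts4 was lower in KO in both clusters where it is high outside the glia. In cluster 20 it was at 84.1 CPM (64.8 to 107) in KO and 206 CPM (175 to 241) in het cells, a ratio of 0.409 (0.301 to 0.550), with a UMI in 37.5% of KO and 52.5% of het cells. In cluster 7 it was at 32.9 CPM (28.3 to 38.1) in KO and 63.3 CPM (56.2 to 70.9) in het cells, a ratio of 0.520 (0.430 to 0.628), with a UMI in 28.8% of KO and 36.7% of het cells. It was not carried by single cells, since the top cell held 6.82% of the UMIs in cluster 20 and 2.73% in cluster 7. In cells with and without an Xist UMI, which the sex label marks as female and male, the ratios were 0.258 and 0.599 in cluster 20 and 0.399 and 0.616 in cluster 7. In cluster 4, where its level is low, Adamts4 ran the other way, at 12.4 CPM in KO and 7.91 CPM in het cells (1.57, 1.07 to 2.33), and so did Adamts15 there, at 10.5 CPM in KO and 6.94 CPM in het cells (1.52, 1.01 to 2.33).

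Adamts1 was the other gene lower in KO in cluster 20, at 293 CPM (256 to 334) in KO and 451 CPM (405 to 502) in het cells (0.650, 0.546 to 0.771). Both called genes of this cluster, of 7 tested, were lower (2.55% of all genes higher and 3.11% lower there). The cluster held 56 KO and 61 het cells. Its contractile markers were at 1.01 (Acta2) and 1.01 (Tagln) times the het level, Kcnj8 at 1.07, Notch3 at 0.776, Rgs5 at 0.677 and Myh11 at 0.636. The 6 markers summed to 21683 CPM in KO and 24055 CPM in het cells, none at 0, and their part in the Adamts1 and Adamts4 ratios was not tested. As background, both genes are induced in many cell types by injury and inflammatory signals.

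Adamts4 had a further home in cluster 15 (Mag, Mal, Mog), at 68.3 CPM in KO and 100 CPM in het cells (0.680, 0.531 to 0.867). Nearly all of it was in cells with a UMI of Mog, a myelin gene of oligodendrocytes: 98 of 100 UMIs in 12 KO cells and 201 of 212 in 33 het cells. In these cells it was at 257 CPM in KO and 203 CPM in het (1.27, 0.986 to 1.62). Mog cells were 12 of 103 cells of the cluster in KO and 33 of 122 in het.

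The procollagen-processing enzymes trim the amino-terminal propeptides of fibrillar collagens. Adamts2 was the ADAMTS gene with the most UMIs (32955), found in 98% of KO and 98.7% of het cells of cluster 0, at 457 CPM (448 to 466) in KO and 462 CPM (453 to 472) in het cells, a ratio of 0.990 (0.962 to 1.02). In cluster 4 it was at 375 CPM in KO and 426 CPM in het cells (0.879, 0.830 to 0.930) and in cluster 7 at 333 CPM in KO and 332 CPM in het cells (1.00, 0.936 to 1.07). Adamts3 was highest in cluster 4, at 28.1 CPM in KO and 27.6 CPM in het cells (1.02, 0.816 to 1.27). Adamts14 had 189 UMIs in all and at most 12 CPM in any cluster and library.

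Adamts7 and Adamts12, which cleave cartilage oligomeric matrix protein, were not alike. Adamts12 was stromal, at 35.6 CPM in KO and 25.1 CPM in het cells of cluster 7 (1.42, 1.12 to 1.80). Adamts7 peaked in cluster 16, whose leading genes Vpreb1, Dntt and Igll1 mark early B-lineage cells, at 177 CPM (146 to 213) in KO and 116 CPM (94.1 to 142) in het cells (1.52, 1.15 to 2.02). It was found in 98 of the 223 cells of this cluster (43.9%, 37.3 to 50.7), with no more than 8 UMIs in a cell and 3.86% of the UMIs in the top cell. In the related cluster 1 (Rag1, Ly6d) it was at 18.9 CPM in KO and 22.4 CPM in het cells, and in the stromal clusters 7 and 4 at 10.5 and 9.69 CPM in KO and 11.8 and 11.2 CPM in het. It was the only member of 1 tested in cluster 16 (1.17% of all genes higher there, 1.22% lower).

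Adamts10 and Adamts17, which act in fibrillin fibres, were highest in cluster 4. Adamts10 was at 115 CPM in KO and 118 CPM in het cells (0.976, 0.877 to 1.09) and Adamts17 at 56.5 CPM in KO and 65 CPM in het cells (0.870, 0.750 to 1.01). Adamts20, needed in mice for pigment cell development, was found mainly in cluster 15, at 28.7 CPM in KO and 20.8 CPM in het cells. The other ADAMTS genes had too few UMIs for a full account: Adamts6, Adamts8, Adamts13, Adamts16, Adamts18 and Adamts19 held 13 to 723 UMIs each. Of these, Adamts19 had 23 UMIs in KO and 1 in het cells of cluster 7.

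Of the 5 ADAMTS-like genes, 3 peaked in the fibroblast-like clusters 0 and 7. Adamtsl1 and Adamtsl3 peaked in cluster 0, Adamtsl1 at 138 CPM in KO and 118 CPM in het cells (1.16, 1.10 to 1.23) and Adamtsl3 at 46.9 CPM in KO and 38.1 CPM in het cells (1.23, 1.12 to 1.35). Adamtsl4, which binds fibrillin and whose loss displaces the lens in mice and humans, peaked in cluster 7 and differed most there, at 40.9 CPM (35.7 to 46.6) in KO and 16.9 CPM (13.4 to 21.1) in het cells, a ratio of 2.42 (1.86 to 3.16). A UMI was found in 38.3% of KO and 23.1% of het cells, and the top cell held 2.30%. In cluster 0, Adamtsl4 was at 14.1 CPM in KO and 13.4 CPM in het cells (1.06). Adamtsl2 and Adamtsl5, with 459 and 787 UMIs in all, peaked elsewhere. Adamtsl2 was highest in the endothelial-like cluster 8, at 12.7 CPM in KO and 13.5 CPM in het cells from 27 and 35 UMIs. Adamtsl5 was highest in cluster 20, at 17.1 CPM in KO and 25.1 CPM in het cells from 13 and 19 UMIs.

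Cluster 7 as a whole had 23 members tested, of which 3 were higher in KO and 1 lower, against 2.77% and 1.24% of all genes there. Beside Adamtsl4, Adamtsl1 was at 26.9 CPM in KO and 15.9 CPM in het cells (1.70, 1.27 to 2.27), and Adamts15 at 34.7 CPM in KO and 22.5 CPM in het cells (1.54, 1.21 to 1.98). The markers of this cluster also differed between the libraries: Pi16 was at 683 CPM in KO and 222 CPM in het cells (3.08), Dpt at 188 CPM in KO and 56.0 CPM in het cells (3.37), Clec3b at a ratio of 1.73 and Aldh1a2 at 0.756. The 7 fibroblast markers summed to a ratio of 1.05, with none at 0.

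The cluster was therefore divided, after its values had been seen, into cells with a UMI of Pi16 or Dpt (199 of 316 KO cells, 63.0%, and 151 of 264 het cells, 57.2%) and cells with neither. Among the Pi16 or Dpt cells Adamtsl4 was at 53.1 CPM in KO and 15.6 CPM in het (3.41, 2.44 to 4.87), and Adamtsl1 at 28.8 CPM in KO and 10.1 CPM in het (2.84, 1.86 to 4.48). Among the cells with neither, Adamtsl4 was at 17.5 CPM in KO and 19 CPM in het (0.925, 0.559 to 1.53) and Adamtsl1 at 23.4 CPM in KO and 24.2 CPM in het (0.965, 0.624 to 1.49). The last 2 rest on 69 and 90 UMIs, under the minimum of 100, and the difference between the 2 kinds of cell was not tested. Adamts15 was at 32.6 CPM in KO and 22.1 CPM in het (1.48, 1.08 to 2.05) in the first kind and at 38.8 CPM in KO and 23.2 CPM in het (1.67, 1.14 to 2.49) in the second. Adamts4 was lower in KO in both kinds, at 28.8 CPM in KO and 62.2 CPM in het (0.462, 0.359 to 0.593) in the first kind and at 40.9 CPM in KO and 64.8 CPM in het (0.632, 0.469 to 0.847) in the second. Adamts5, Mmp2 and Timp2 were at ratios of 0.966 to 1.27 in both kinds. Timp3 was at 1.03 (0.943 to 1.13) in the first kind and at 1.31 (1.17 to 1.48) in the second.

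**Figure D4:**
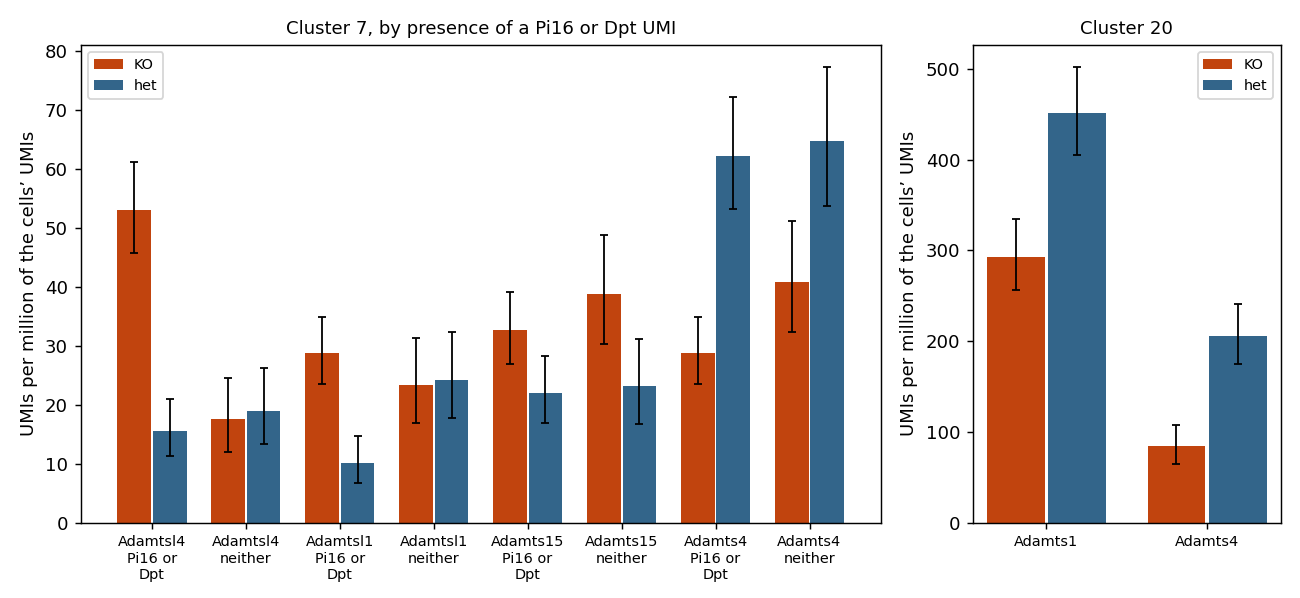
CPM with 95% counting intervals, KO left of het, of 4 members in cluster 7 by presence of a Pi16 or Dpt UMI (left panel) and of Adamts1 and Adamts4 in cluster 20 (right panel). Adamtsl4 and Adamtsl1 are higher in KO among cells with Pi16 or Dpt and at 0.925 and 0.965 times the het level among cells with neither, which hold under 100 UMIs of each, while Adamts4 is lower in KO in both kinds of cell and in cluster 20.

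Timp2 and Timp3 had the most UMIs of all members. Timp2, with 82608 UMIs found in 58.5% of cells, was at 1134.5 CPM in KO and 1107 CPM in het cells of cluster 4 (1.03, 0.991 to 1.06), at 1003 and 904 CPM in cluster 7 (1.11, 1.06 to 1.15) and at 901 and 904 CPM in cluster 0 (0.997, 0.976 to 1.02). Timp3 peaked in cluster 8, at 705 CPM (669 to 741) in KO and 799 CPM (765 to 834) in het cells (0.882, 0.825 to 0.943), and was at 545 CPM in KO and 556 CPM in het cells of cluster 0 (0.980, 0.954 to 1.01). In the cells of cluster 15 without a Mog UMI, Timp3 was at 708 CPM in KO and 931 CPM in het (0.761, 0.692 to 0.836). Timp1, the inducible inhibitor, was at 210 CPM in KO and 194 CPM in het cells of cluster 4 (1.08, 1.00 to 1.18) and at 140 CPM in KO and 167 CPM in het cells of cluster 0 (0.836, 0.796 to 0.879). None of the 3 passed 1.5-fold in a stromal or vascular cluster.

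Timp4 was a gene of cluster 15, at 39.6 CPM (30.1 to 51.2) in KO and 78.6 CPM (67.1 to 91.5) in het cells (0.504, 0.367 to 0.683), from 58 and 166 UMIs in 13.6% of KO and 17.2% of het cells. It went opposite ways by sex label. Cells with the female label held 2 UMIs in 31 KO cells and 159 in 77 het cells (0.0379, 0.00456 to 0.139), and cells with the male label held 56 UMIs in 72 KO cells and 7 in 45 het cells (4.77, 2.17 to 12.4). The myelin genes beside it also differed, with Mog at 1029 CPM in KO and 1504 CPM in het female-label cells and at 259 CPM in KO and 545 CPM in het male-label cells. In cells with a Mog UMI, Timp4 was at 26.2 CPM in KO and 90.8 CPM in het from 10 and 90 UMIs (0.289, 0.134 to 0.556). In cells without one it was at 44.3 CPM in KO and 67.8 CPM in het from 48 and 76 UMIs (0.653, 0.445 to 0.95). Of the 11 members tested in cluster 15, 2 were higher in KO and 1 lower, against 5.02% and 7.42% of all genes.

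The balance of inhibitor to protease RNA was compared as Timp UMIs per Mmp UMI in each cluster. In the stromal and vascular clusters other than cluster 4 it stood at 2.14 in KO and 2.26 in het cells of cluster 0, 1.61 and 1.61 in cluster 7, 1.89 and 1.91 in cluster 5, 4.05 and 4.36 in cluster 8, and 1.99 and 2.38 in cluster 20. It was lowest in cluster 13, at 0.247 in KO and 0.272 in het cells. Cluster 4, with Mmp9 and Mmp13, stood at 0.840 in KO and 1.03 in het cells, and cluster 12 at 0.397 in KO and 1.26 in het cells. Mmp9 gave 3091 of the 3973 Mmp UMIs of cluster 12 in KO and 282 of 548 in het. Outside the stroma and vessels the balance was also lower in KO in cluster 9 (1.59 in KO and 3.06 in het), cluster 10 (0.764 and 1.29), cluster 14 (0.951 and 1.83), cluster 15 (2.76 and 4.89), cluster 18 (0.543 and 0.767) and cluster 21 (1.07 and 2.54). It was higher in KO in cluster 16 (0.914 and 0.515), cluster 17 (1.28 and 0.809), cluster 19 (1.1 and 0.792) and cluster 2 (1.245 and 0.944). In the remaining clusters KO and het were closer than in cluster 4. No interval was computed for the balances, and some rest on few UMIs or cells. Cluster 16 held 32 Timp and 35 Mmp UMIs in KO and 17 and 33 in het. In cluster 4, the 3 KO cells high in Mmp9 and Mmp13 held, by Mmp9 alone, 1303 of the 14362 KO Mmp UMIs. In cluster 19, 1 cell held 28.7% of the Timp2 UMIs, and in cluster 15, 1 cell held 88 of the 115 KO Mmp9 UMIs. These are ratios of RNA counts and say nothing of enzyme activity.

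Outside the stromal and vascular clusters most members were at low levels, and the pairs past 1.5-fold ran mostly in one direction within a cluster. All 8 called pairs of 11 tested in cluster 12 were higher in KO (8.48% of all genes higher there, 4.18% lower). These were Mmp9, Mmp13, Mmp14 (103 CPM in KO and 27.7 CPM in het cells), Timp2 (248 and 87.1 CPM), Timp3 (171 and 105 CPM), Adamts2 (37.1 and 8.92 CPM), Mmp2 (45.2 and 27.4 CPM) and Adamts10 (28.8 and 16.9 CPM). Other values of this cluster differed too: the 9 mast cell or basophil markers summed to 7854 CPM in KO and 15158 CPM in het cells (0.518, none at 0), the 7 osteoclast markers to 1938 and 559 CPM (3.47, 0 and 2 at 0) and the 7 macrophage markers to 314 and 748 CPM (0.419, none at 0). The median depth was 9946.5 UMIs per KO cell and 17456 per het cell. Their part in the 8 ratios was not tested, apart from the values for Mmp9 and Mmp13 above. The 4 called pairs of 6 in cluster 2 (1.84% of all genes higher, 0.856% lower), the 3 of 12 in cluster 13 (2.55% and 2.24%), the 2 of 11 in cluster 6 (2.15% and 1.16%) and the 2 of 4 in cluster 1 (1.64% and 0.958%) were also all higher. The 3 called pairs of 4 in cluster 10 (0.734% of all genes higher, 4.14% lower) and the 2 of 18 in cluster 3 (0.852% and 2.5%) were all lower in KO. In cluster 14, 4 of 7 were lower and 1 higher (4.62% and 1.84%), and in cluster 11, 2 of 11 were lower and 1 higher (4.63% and 0.945%). Single called pairs were Timp3 in cluster 9, at 34.3 CPM in KO and 8.19 CPM in het cells (2.49% of all genes higher, 2.33% lower), Timp2 in cluster 19, at 157 CPM in KO and 77.2 CPM in het cells (5.87% higher, 8.31% lower), and Timp2 in cluster 21, at 25.1 CPM in KO and 88.5 CPM in het cells (2.58% of all genes higher, 3.58% lower). In cluster 19, 1 cell held 28.7% of the Timp2 UMIs, and the ratio without the top cells was 1.16. No pair was called in clusters 17 (3 tested, 3.78% of all genes higher, 3.08% lower) and 18 (2 tested, 1.76% and 5.13%).

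Fibroblast markers also differed between the libraries in some of these clusters. The summed level of 7 fibroblast markers (Pdgfra, Dcn, Lum, Dpt, Pi16, Col3a1 and Slc47a1) was 893 CPM in KO and 204 CPM in het cells of cluster 12 (4.39), 444 and 271 CPM in cluster 2 (1.64), 647 and 152 CPM in cluster 9 (4.27) and 229 and 759 CPM in cluster 10 (0.302). At most 1 of the 7 was at 0 in any of these clusters and libraries. Of the 16 clusters, 6 had this sum at least 1.5-fold higher in KO, and they held 19 of the 26 higher pairs and none of the 13 lower ones. Over the 16 clusters 2.67% of all genes were higher and 3.36% lower, and this share was not computed for each group of clusters. Cluster 12 gave 8 of the 19 pairs (8.48% of all genes higher, 4.18% lower). These include Mmp9, of which the 2 kinds of cell described above held all but 14 of 3091 KO UMIs there. In 4 clusters the sum was at least 1.5-fold lower in KO, and they held 1 higher pair and 6 lower ones. The other 6 clusters held 6 higher and 7 lower pairs. The part of fibroblast RNA or fibroblast fragments in these pairs was not tested. In cluster 3, where Adamts5 was at 34.3 CPM in KO and 54.6 CPM in het cells (0.628, 0.535 to 0.736), the fibroblast sum was 2689 CPM in KO and 2707 CPM in het cells (0.993).

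**Figure D5:**
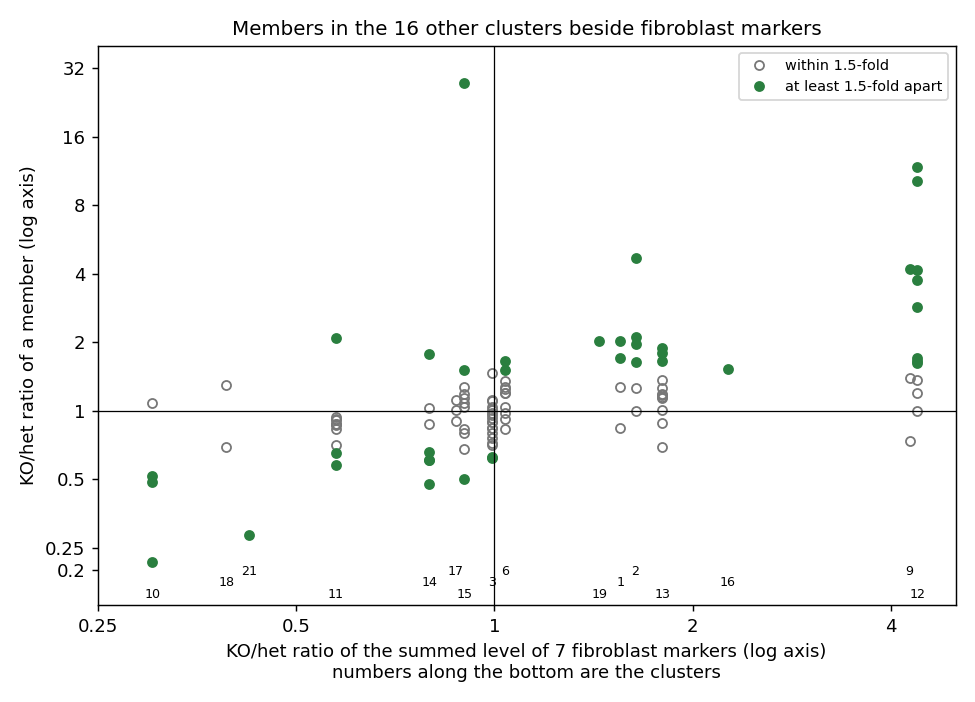
KO/het ratio of each member tested in the 16 clusters outside the stroma and vessels (log axis) against the KO/het ratio of the summed level of 7 fibroblast markers in the same cluster (log axis), filled for pairs at least 1.5-fold apart. Filled points lie above 1 where the marker sum is at least 1.5-fold higher in KO, as in clusters 2 and 12, and below 1 in clusters 10 and 21.

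The B-lineage clusters 1, 2, 6, 10 and 16, which are not a known source of these stromal genes, were taken as a background. They held Timp2 at 39.3 CPM in KO and 35.9 CPM in het cells (16.1% and 10.2% of cells with a UMI). Timp3 was at 25.4 and 16 CPM there and Mmp14 at 20.9 and 17.3 CPM. After thinning each cell to 1000 UMIs, Timp2 was found in 3.49% of KO and 2.27% of het cells there, against 53.5% of KO and 54.0% of het cells of cluster 0. Levels of these genes near the B-lineage values cannot be told apart from this background, which was not uniform. The Timp2 KO/het ratio was 1.71 in cluster 1 and 0.217 in cluster 10. Single B-lineage cells held up to 56 Timp2 UMIs in KO and 55 in het. Whether free RNA or doublets gave these UMIs was not tested. Adamts7 in cluster 16, at 16.8% of KO and 11.6% of het cells after thinning, was above its share over the B-lineage clusters (1.49% in KO and 1.70% in het).

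Other genes of the system were described by counts in 22 clusters. The background over all genes and clusters was 2.19% higher and 2.73% lower. Of 100 pairs for related proteases (ADAMs, Bmp1 and its kin), 1 was higher in KO and 3 lower. Of 145 pairs for activators, clearance receptors and other inhibitors, 15 were higher and 14 lower, and of 235 pairs for substrates 49 were higher and 35 lower. All 7 substrates tested in cluster 9 and 6 of 9 in cluster 2 were higher in KO, while 6 of 7 in cluster 10 and 5 of 5 in cluster 21 were lower. In cluster 12, where 8.48% of all genes were higher and the fibroblast marker sum stood at 4.39 times its het level, 12 of 13 substrates were higher in KO, among them Col1a1 (4.20), Fn1 (7.35) and Fbn1 (6.08), and Col2a1 was lower (0.223). In cluster 7, the proprotein convertase Pcsk6 was at 3.95 times its het level in KO, the matrix proteins Fbn1 and Fn1 at 1.81 and 1.66, and Adam23 at 0.541. In cluster 20 none of the 18 pairs of the 3 lists passed 1.5-fold.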

How the data were processed

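Each library was deposited as a matrix of raw UMI counts. The authors ran Cell Ranger 3.0.2 against the mm10 build, as the headers and the submitters' processing notes record. Gene annotation and cell filters, not given in the sources used here, could change which genes and cells were counted. Counts of 12544 annotated cells were also deposited by the authors, with each cell's library, cluster, sex label and percent of mitochondrial UMIs (medians 6.85% in KO and 6.80% in het). A cell is labelled female where it has an Xist UMI (12544 of 12544 cells), so female cells without one are labelled male. Totals were 122426614 UMIs over 12046 barcodes in KO and 113220628 over 10936 in het, of which 94162133 and 87906109 were in annotated cells.

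Counts from the matrices were summed per cluster and library with Python 3.11.15, NumPy 2.4.6, SciPy 1.17.1, pandas 2.3.3 and, for Scrublet scores, scanpy 1.11.5. Intervals are exact Poisson for a level, conditional binomial for a ratio and Clopper-Pearson for a share. UMIs limit but do not remove amplification error. The members' symbols, the gene lists and the groups of cells were chosen with earlier results of these data known. Genes with at least 1000 UMIs, or with a cluster where they had at least 100 UMIs and differed at least 1.5-fold, were described in full. No cells were removed as doublets in the values reported; leaving out the top 5% of Scrublet scores was an alternative. The call rule was tested on simulated Poisson counts, which hold no clumping of UMIs in single cells and no difference between libraries. That simulation cannot show how reliable the calls are where few cells carry a ratio. Thinning to 1000 UMIs left out 21 KO and 13 het cells. The deposited table and the matrices differed in 3 of 73241 values of the members above 0. Gene positions are from GENCODE vM21 (GRCm38) and promoter windows from RefSeq (GRCm38.p6), which held 31 of the 46 members. A few of the leading genes of clusters and cells are not reported here.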

Additional observations from a re-analysis of the deposited data

Results flagged for a closer look

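In 4 pairs of gene and cluster, the KO/het ratio ran opposite ways in cells with the female and the male label, with counting intervals that excluded 1 on both sides. The difference between the labels was not tested. Timp4 in cluster 15 was at 0.0379 in female-label and 4.77 in male-label cells, Mmp13 in cluster 0 at 2.31 and 0.314, Mmp2 in cluster 14 at 2.52 and 0.391, and Timp3 in cluster 12 at 0.753 and 2.27. For Mmp13 in cluster 0 the male-label value rests on 1 het cell, which held 82 of the 94 UMIs of male-label het cells.

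In the 5452 KO and 4986 het barcodes outside the annotation, Mmp13 was at 78.1 CPM in KO and 37.3 CPM in het, a ratio of 2.09 (1.94 to 2.26), and Timp1 at 55.9 CPM in KO and 34.6 CPM in het, a ratio of 1.61 (1.48 to 1.75). These barcodes were used in no comparison. Mmp7, an enzyme of epithelia listed only in the matrices, had 8 UMIs in 2 annotated cells, 6 of them in a KO cell of cluster 11.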

How the results depend on the processing

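No paired analysis was possible because each genotype has 1 library and no test was made. Counts from the deposited table and scaling by the median ratio of all genes in a cluster kept all 50 called ratios within their counting intervals. The Mmp9 ratio in cluster 12 (10.2) was 21.4 without the top cell of each library, 8.73 in female-label cells, 16.1 as a mean of per-cell CPM, 1436 (257 to 56749, from 1400 and 1 UMIs) without the top Scrublet scores, 61.0 without cells holding osteoclast markers, 6.87 without cells high in Mmp9 and Mmp13, and 0.824 without both kinds. In cluster 4 the Mmp9 ratio (6.0) was 4.65 without top cells, 7.18 and 5.0 in female- and male-label cells, 1.49 without cells high in Mmp9 and Mmp13, and 1.48 without both kinds. The Mmp13 ratio in cluster 4 (1.73) was 1.91 in male-label cells, 1.53 as a per-cell mean, 2.05 without the top Scrublet scores, 1.61 without cells high in Mmp9 and Mmp13, and 1.59 without both kinds. Adamts4 was at 0.399 (female label) and 0.632 (neither Pi16 nor Dpt) in cluster 7, and at 0.258 (female) and 0.599 (male) in cluster 20. Adamtsl4 in cluster 7 was at 3.41 in cells with Pi16 or Dpt and 0.925 in cells with neither, where Adamtsl1 was at 0.965.

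Ratios that turned in female-label cells were Mmp13 in cluster 0 (2.31, and 2.25 without top cells), Adamts9 in cluster 11 (1.38), Adamts2 in cluster 14 (1.09, and 1.37 without the top Scrublet scores), Timp3 in cluster 12 (0.753) and Timp3 in cluster 14 (1.33). In male-label cells Mmp2 in cluster 14 (0.391), Adamts2 in cluster 10 (1.19), Timp3 in cluster 6 (0.867), and Timp4 in cluster 15 (4.77) turned. Timp2 in cluster 19 had 0 UMIs in KO cells of the male label and was at 0.509 without the top Scrublet scores. Pairs higher in KO numbered 33, and 98 at a minimum of 20 UMIs, 9 at 300 UMIs and 14 at 2-fold. Pairs lower in KO numbered 17, and 61, 4 and 5 under the same settings and 9 without the top Scrublet scores. The share of UMIs in clusters 0, 4, 5 and 7 (77.9%) was 50.4% with clusters weighted equally. The alternatives on single cells of cluster 7 and on cells high in Mmp9 were chosen after seeing the data. Cells high in Mmp9 and Mmp13 were picked by these genes, so lower ratios without them are partly built in. The causes were not tested.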

Other observations

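In the cells of cluster 9 that the authors named, Mmp and Timp genes were sparse. Timp2 was at 111 CPM in KO and 110 CPM in het cells named gdTcells (107 and 76 UMIs), and at 89.3 CPM in KO and 54.4 CPM in het cells named NK (55 and 26 UMIs). Timp3 was at 79.6 CPM in KO and 18.8 CPM in het NK cells, and Adamts2 at 45.5 CPM in KO and 6.27 CPM in het NK cells, from 28 and 3 UMIs, while Adamts10 was at 19.5 CPM in KO and 56.5 CPM in het NK cells, from 12 and 27 UMIs. Each of these genes had under 100 UMIs in NK cells, and 1 KO cell held 36.2% of the Timp3 UMIs. Over the whole of cluster 9, the 7 fibroblast markers summed to 647 CPM in KO and 152 CPM in het cells.

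Adamts4 was also lower in KO in barcodes outside the annotation, at 12.8 CPM in KO and 19.8 CPM in het (0.648, 0.564 to 0.743), from 363 and 502 UMIs.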
